A study of Mus musculus with 20 samples.

Results

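The collagen genes were examined in mouse breast tumours that are sensitive to olaparib, which blocks the PARP enzymes that take part in DNA repair, or resistant to it. The members were the protein-coding genes whose symbol has the form of a collagen chain (Col, a number, a, a number), and 38 of the 16411 genes in the deposited table, 13693 of them protein-coding, met this rule. All 38 passed the filter on low values, which asked for a value above 0 on the deposited log2 scale of CPM, reads scaled by library size, in at least 2 libraries. The tumours were allografts, pieces of mouse breast cancer grown in other mice, of the sensitive line MDA594 and of the resistant lines MDA594OR1 and MDA594OR2, called OR1 and OR2 here. Untreated MDA594 had 4 libraries with 3 host codes, and treated MDA594 had 3 with 2 codes. Untreated OR1 had 3 libraries with 2 codes, and treated OR1 had 4 with 3 codes. Untreated OR2 had 2 libraries that share 1 code, and treated OR2 had 3 with 3 codes. The samples called untreated here are titled control and stand under a vehicle heading in the table, so untreated means without olaparib. The titles of treated samples write Olap_100 with no unit. Strain, age, repair genotype, treatment time and the way the resistant lines were derived are not given in the labels used here. One further MDA594 library, titled control but labelled treated, was left out. Replicate numbers below only name libraries.

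Collagens are trimeric proteins of the extracellular matrix. Fibrillar collagens such as types I, III and V form the banded fibrils of connective tissue and are made mainly by fibroblasts, type IV collagens form the sheet of basement membranes, and types II, IX, X and XI belong to cartilage. Other classes sit on fibrils, form beaded filaments or short-chain networks, or span the cell membrane. In mammary tumours, fibrillar collagens are known chiefly as products of stromal cells, while epithelial and endothelial cells make type IV.

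The libraries held 36.8 to 118 M reads in listed genes, and the lowest value of any collagen was 2 reads, for Col10a1 in untreated MDA594 replicate 4. Library means of the epithelial markers ran from 4.70 log2 CPM in an untreated OR1 library to 7.46 in a treated OR2 library. Of these markers, the adhesion proteins Epcam and Cdh1, named after their values were seen, stood at 8.62 to 10.4 and 8.13 to 9.60 over the 19 libraries. The 10 skeletal muscle markers averaged 6.23 log2 CPM in treated MDA594 replicate 3, 2.18 in untreated OR1 replicate 1 and 1.82 in treated OR1 replicate 3, against -5.08 to -0.75 in the others. Calls between lines and the class medians of the MDA594 and OR1 responses are given with and without these 3 libraries. In these bulk samples, fewer cells of a type and less RNA per cell cannot be told apart. Library names fall into a series of 6 and a series of 13. The titles carry 7 numbers, of which 5 occur with 1 line only, so line and title number can hardly be told apart. The 2 others each hold an untreated MDA594 library and a treated library, of OR1 for one number and of OR2 for the other. With a title number term, differences between lines thus hang on these single pairs, combined with the within-line responses. Within a line, 4 of the numbers hold both untreated and treated libraries. Where nothing says that libraries came from separate animals, p-values measure only the spread between these libraries.

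Promoters are shown for the head-to-head type IV pairs, whose chains are compared within libraries below, and for Col11a2 and Col10a1, the cartilage-type chains furthest from MDA594 in either direction. RefSeq windows on GRCm38.p6 run from 250 bases before to 50 after a gene's start, and 34 windows matched 31 of the 38 collagens. Capitals mark the TATA box letters TATAAA, the letters CCAAT bound by factors such as NF-Y, and the letters GGGCGG of GC boxes, or their reverse complements. Both strands were searched, and overlaps between motifs were allowed.
Col4a1 promoter, chr8:11312777-11313076, minus strand: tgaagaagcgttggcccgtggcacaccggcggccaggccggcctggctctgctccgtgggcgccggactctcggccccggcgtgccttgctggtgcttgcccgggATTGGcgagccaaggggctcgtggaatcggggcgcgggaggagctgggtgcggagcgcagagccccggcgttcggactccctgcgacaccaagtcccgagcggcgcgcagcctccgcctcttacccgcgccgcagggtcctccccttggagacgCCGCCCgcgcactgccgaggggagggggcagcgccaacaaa
Col4a2 promoter, chr8:11312555-11312854, plus strand: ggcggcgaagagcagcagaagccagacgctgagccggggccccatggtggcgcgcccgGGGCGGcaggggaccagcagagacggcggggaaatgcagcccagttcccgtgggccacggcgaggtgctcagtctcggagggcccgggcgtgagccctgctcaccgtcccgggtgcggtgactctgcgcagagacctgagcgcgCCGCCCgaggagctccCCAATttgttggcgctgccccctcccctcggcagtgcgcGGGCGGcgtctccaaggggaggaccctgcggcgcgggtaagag
Col4a5 promoter, chrX:141475169-141475468, plus strand: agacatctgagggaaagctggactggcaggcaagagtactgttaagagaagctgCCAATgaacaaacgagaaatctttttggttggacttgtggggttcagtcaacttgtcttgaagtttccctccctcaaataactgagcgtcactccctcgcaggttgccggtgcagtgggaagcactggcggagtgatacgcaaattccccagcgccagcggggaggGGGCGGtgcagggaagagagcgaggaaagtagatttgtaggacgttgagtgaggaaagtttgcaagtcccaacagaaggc
Col4a6 promoter, chrX:141474027-141474326, minus strand: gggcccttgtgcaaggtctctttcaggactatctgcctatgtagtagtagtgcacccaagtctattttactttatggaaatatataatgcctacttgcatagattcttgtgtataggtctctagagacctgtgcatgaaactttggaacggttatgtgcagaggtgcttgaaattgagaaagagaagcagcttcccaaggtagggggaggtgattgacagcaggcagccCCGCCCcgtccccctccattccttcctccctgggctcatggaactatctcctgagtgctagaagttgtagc
Col11a2 promoter, chr17:34038888-34039187, plus strand: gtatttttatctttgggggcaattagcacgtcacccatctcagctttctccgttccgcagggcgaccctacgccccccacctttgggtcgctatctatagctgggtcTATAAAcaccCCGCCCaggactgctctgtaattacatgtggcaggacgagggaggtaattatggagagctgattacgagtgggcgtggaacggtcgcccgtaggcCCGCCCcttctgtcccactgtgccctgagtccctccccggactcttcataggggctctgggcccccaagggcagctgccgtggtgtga
Col10a1 promoter, chr10:34389731-34390030, plus strand: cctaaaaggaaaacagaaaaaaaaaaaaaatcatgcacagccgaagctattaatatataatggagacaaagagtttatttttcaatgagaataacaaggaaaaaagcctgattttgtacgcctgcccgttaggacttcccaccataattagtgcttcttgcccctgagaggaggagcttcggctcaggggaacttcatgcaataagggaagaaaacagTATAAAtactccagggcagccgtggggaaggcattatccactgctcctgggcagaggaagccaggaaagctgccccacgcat

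Col4a1 and Col4a2 run away from each other on chromosome 8, and their windows share 78 bases. Col4a5 and Col4a6 lie in the same arrangement on chromosome X, with 842 bases between their windows. None of the 4 type IV windows shown holds TATAAA, which occurs once each in the windows of Col11a2 and Col10a1. GGGCGG occurred in 21 of the 34 collagen windows, or 61.8%, and in 35.7% of all 32851 windows. CCAAT was found in 32.4% of collagen windows and 37.4% of all, and TATAAA in 11.8% and 13.6%. These matches describe letters in a window, not binding.

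Per kilobase of the longest annotated transcript, the most abundant collagen was Col9a1, a chain of the fibril-associated type IX of cartilage, at a mean of 8.74 log2 CPM per kb over the 19 libraries. Col9a3, another type IX chain, followed at 7.84, then Col4a1 at 7.33, Col4a2 at 6.53, Col9a2 at 6.38, Col2a1 at 6.18 and Col11a1 at 6.0 on the same scale. The stromal fibril chains Col1a1, Col1a2 and Col3a1 stood lower, at 5.25, 4.67 and 4.61 log2 CPM per kb. The least abundant were Col4a3 at -4.68, Col24a1 at -3.81 and Col28a1 at -3.41. Lengths came from GENCODE M21 on GRCm38 and the authors' build was GRCm39, so levels per kb are approximate.

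Cartilage-type chains made up 68.6% ± 5.62 (SD, n = 4) of all collagen CPM per kb in untreated MDA594 and 49.0% ± 5.71 (n = 3) in treated MDA594. The share was 67.8% ± 4.29 (n = 3) in untreated OR1 and 60.5% ± 9.19 (n = 4) in treated OR1. In OR2 it was 48.5% ± 3.68 (n = 2) without and 55.5% ± 12.8 (n = 3) with treatment. Untreated and treated MDA594 libraries did not overlap, at 62.9% to 74.7% against 45.5% to 55.6%, while the groups of OR1 overlapped and so did those of OR2. Type IV chains held 13.7% to 37.9% of the total in single libraries and fibrillar chains 2.5% to 26.2%. All collagens together took 0.440% to 1.24% of all CPM, lowest in untreated OR2 replicate 1 and highest in treated MDA594 replicate 3.

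**Figure D1:**
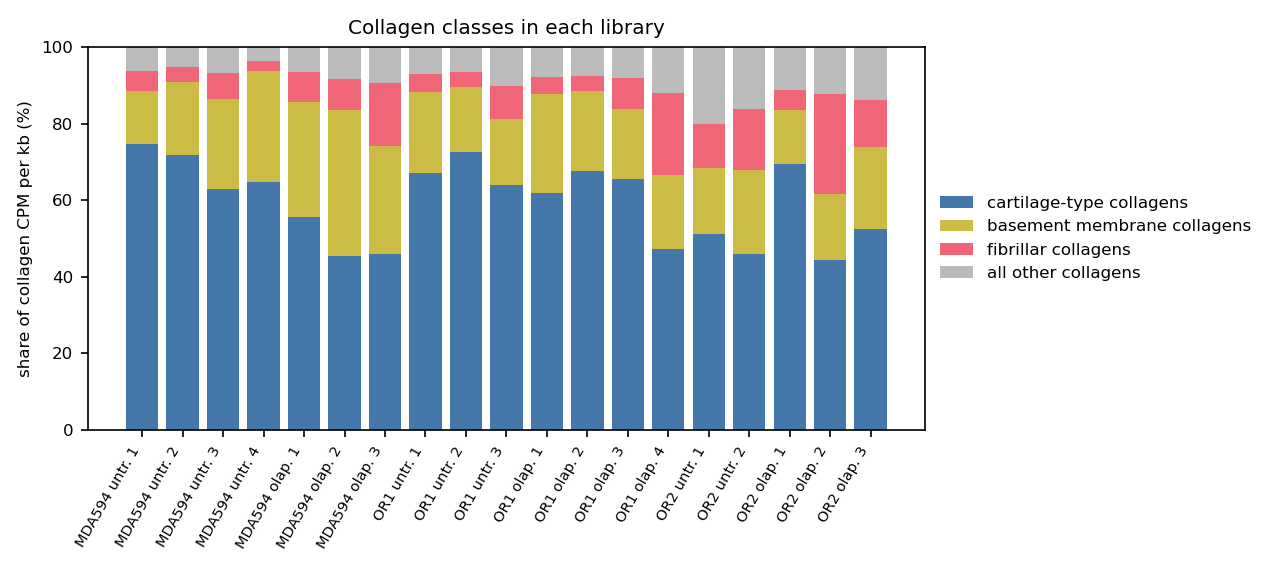
Share of collagen CPM per kb (%, y axis) taken by each collagen class in each of the 19 libraries (x axis, untr. for untreated and olap. for olaparib). Cartilage-type chains hold 44.3% to 74.7%, and fibrillar chains range from 2.5% to 26.2%.

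Differences between the lines were tested first, to see how the collagens of the resistant tumours compare with those of the sensitive one. A gene was called at an adjusted p under 0.05 in limma over all 16330 genes tested. Over both treatments, with each line's 2 group means averaged, OR1 against MDA594 called 5 of 38 collagens, 1 higher and 4 lower, and 4.81% of all genes were called. OR2 against MDA594 called 10 of 38, 2 higher and 8 lower, with a background of 4.2%. OR1 against OR2 called 1 of 38, with 0.386% of all genes called. Among untreated tumours, OR1 against MDA594 called 1 of 38 with a background of 0.11%, and OR2 against MDA594 called 1 of 38 with a background of 0.214%. By voom on recovered reads the counts were 2, 9 and 1 over both treatments, where 2.99%, 4.08% and 0.282% of all genes were called, and 0 and 1 among untreated tumours, where 0.0122% and 0.239% were. The comparisons share libraries, and each change comes from a limma model that allows for shared host codes, so it need not equal the difference of the group means. The median difference of the 38 over both treatments was -0.53 for OR1 and -0.22 for OR2 against MDA594, while the medians of all genes tested were 0.01 and -0.02. Without the 3 libraries with muscle markers, the counts over both treatments were 1 for OR1 and 2 for OR2 against MDA594, and 0 for OR1 against OR2. With the title number in the model 0 collagens were called in OR1 and 3 in OR2 over both treatments, the latter Col4a1, Col4a2 and Col16a1. Fitted to the compared lines alone, OR1 called 7 and OR2 called 2 against MDA594, the latter Col9a3 and Col6a6. The other OR2 calls were lost in that fit, at adjusted p-values of 0.0598 to 0.200. The OR2 count was 5 without treated MDA594 replicate 3 and 4 without untreated OR2 replicate 1. The OR1 count was 2 without untreated MDA594 replicate 2, untreated OR1 replicate 1 or treated OR1 replicate 1 or 2, and 1 without treated MDA594 replicate 2 or 3, untreated OR1 replicate 2 or 3, or treated OR1 replicate 4. For these alternatives, voom aside, the share of all genes called is not given here, so the counts have no background beside them.

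**Figure D2:**
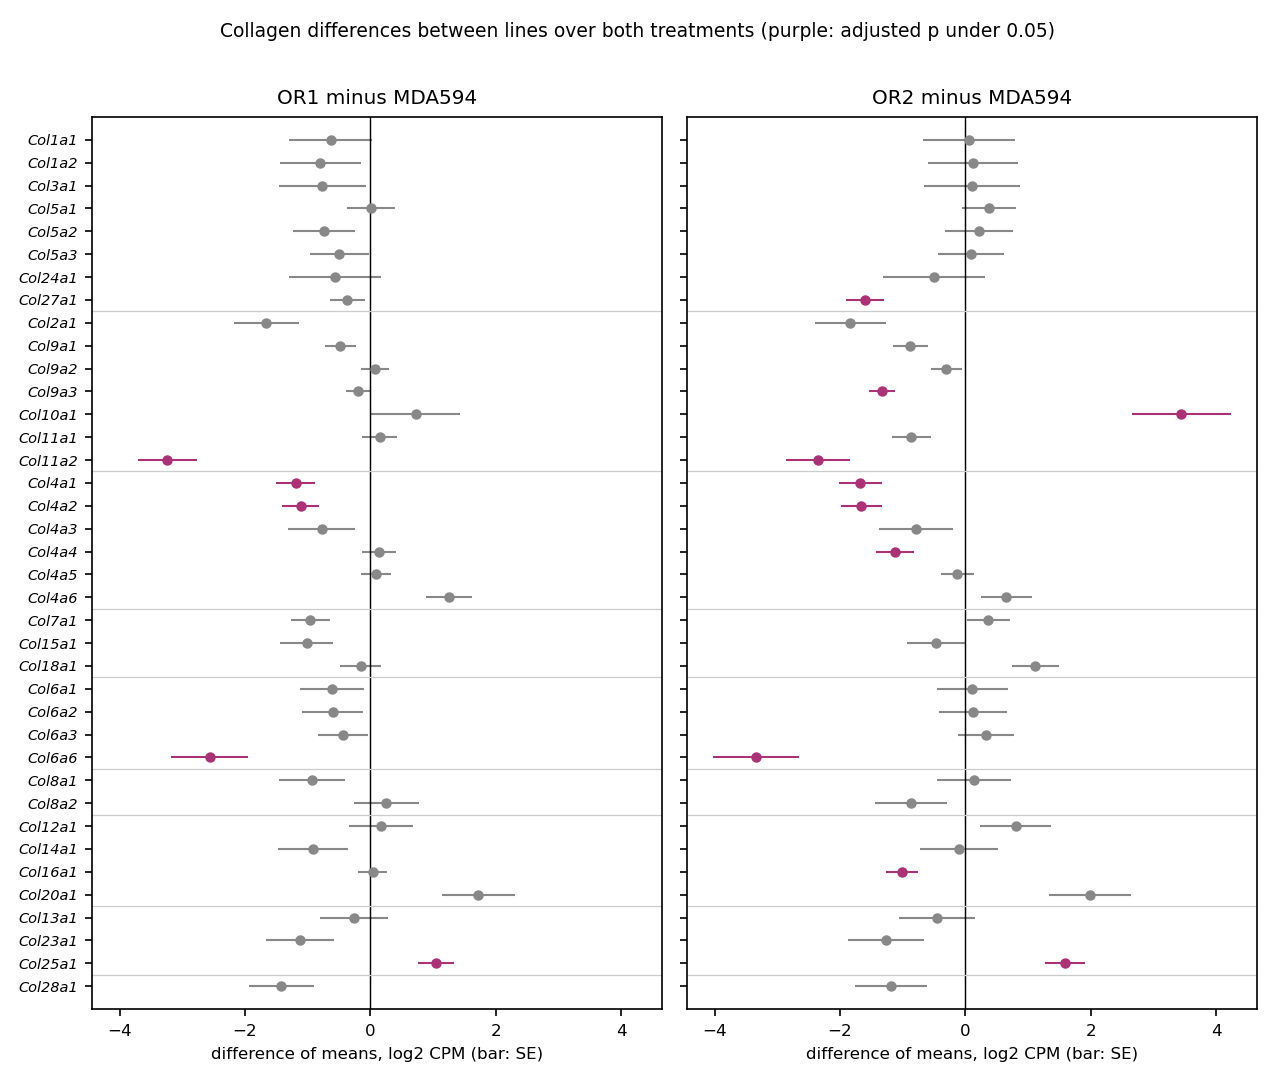
Difference of OR1 (left) and OR2 (right) from MDA594 over both treatments in log2 CPM (x axis, bars are SE) for each of the 38 collagens (y axis, grouped by class). Called collagens are purple, 5 for OR1 and 10 for OR2. Col11a2, Col6a6, Col4a1 and Col4a2 lie to the left in both panels and Col25a1 to the right, but with the title number in the model Col4a1 and Col4a2 turned to 0.049 and 0.23 in OR1. With that term the OR1 difference hangs on a single pair of libraries and the within-line responses.

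Among cartilage-type collagens, Col11a2 was called lower in both resistant lines, Col9a3 was called lower in OR2, and Col10a1 was called higher in OR2. Col11a2 encodes a chain of type XI, the collagen at the core of cartilage fibrils. In untreated MDA594 it stood at 8.09, 8.26, 8.11 and 8.09 log2 CPM, and in treated MDA594 at 7.31, 5.73 and 8.20. Untreated OR1 libraries had 3.56, 3.75 and 3.87, and treated OR1 libraries had 5.83, 3.92, 6.18 and 4.58. Untreated OR2 had 4.71 and 5.56, and treated OR2 had 5.68, 6.01 and 4.87. All 3 untreated OR1 libraries thus lay below the 16 others, and the only MDA594 library within the range of the resistant ones was treated replicate 2. Untreated OR1 was lower than untreated MDA594 by a log2 difference of -4.40 (SE 0.66, adjusted p = 0.0152). This call was lost without untreated OR1 replicate 3, where the difference was -4.49 with an adjusted p of 0.144, with voom weights, at -4.38 with 0.0670, and once the model held the title number, at -3.45 with 0.756. Without the libraries with muscle markers it was -4.34 with 0.0349. Over both treatments the difference from MDA594 was -3.24 in OR1 (SE 0.46, adjusted p = 0.00335), and this call held when any single library was left out and without the libraries with muscle markers, but not with the title number in the model, at -2.07 with an adjusted p of 0.655. In OR2 it was -2.35 (SE 0.52, adjusted p = 0.0190), and the adjusted p was 0.0806 without treated MDA594 replicate 3, 0.0739 without untreated OR2 replicate 1, 0.0971 without the 3 libraries with muscle markers and 0.298 once the model held the title number.

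Col11a1, the other type XI chain measured, was not called in either resistant line. It stood at 9.27 to 9.57 log2 CPM in untreated MDA594, 9.21 to 9.57 in untreated OR1 and 9.07 to 9.31 in treated OR1. Treated MDA594 had 9.08, 7.55 and 9.48, untreated OR2 had 8.5 and 8.20, and treated OR2 had 8.26, 8.60 and 7.61. OR1 differed from MDA594 by 0.15 (SE 0.28, adjusted p = 0.797) and OR2 by -0.87 (SE 0.31, adjusted p = 0.130). Within a library, Col11a1 exceeded Col11a2 by 1.16 to 1.81 in MDA594, by 2.89 to 5.82 in OR1 and by 2.58 to 3.8 in OR2, and MDA594 overlapped neither resistant line in this difference.

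Col9a3, a type IX chain, stood at 10.3, 10.1, 9.96 and 9.93 log2 CPM in untreated MDA594, and at 9.70, 9.18 and 9.82 in treated MDA594. Untreated OR2 had 8.11 and 8.42, and treated OR2 had 9.25, 8.69 and 8.34. OR1 libraries ran from 9.18 to 10.1 and overlapped with MDA594. All OR2 libraries except treated replicate 1 lay below every library of the other lines. OR2 was lower than MDA594 by -1.34 over both treatments (SE 0.21, adjusted p = 0.00316), a call that held when any single library was left out and, at an adjusted p of 0.0264, without those with muscle markers, but not with the title number in the model, at -0.73 with 0.314. Untreated OR2 was lower than untreated MDA594 by -1.84 (SE 0.31, adjusted p = 0.0280). That call was lost without treated MDA594 replicate 3, treated OR1 replicate 1, 2 or 3, or untreated OR2 replicate 1, at adjusted p-values of 0.0509 to 0.229, at 0.0846 without the libraries with muscle markers, and once the model held the title number, at -1.11 with 0.175. In the same comparison 2 to 5 collagens were called without untreated MDA594 replicate 3 or 4, untreated OR2 replicate 2 or treated OR2 replicate 1 or 3. OR1 exceeded OR2 by 1.14 (SE 0.21, adjusted p = 0.0208), and the adjusted p was 0.0608 without untreated OR1 replicate 3, 0.114 without untreated OR2 replicate 1 and 0.0506 without the libraries with muscle markers. A title number term made that difference 0.18 with an adjusted p of 0.897. That comparison called 2 to 4 collagens without untreated MDA594 replicate 1, 3 or 4, treated MDA594 replicate 2, untreated OR2 replicate 2 or treated OR2 replicate 1. The other type IX chains were not called: Col9a1 differed by -0.88 in OR2 (SE 0.27, adjusted p = 0.0798), and Col9a2 ranged from 6.85 to 8.67 log2 CPM over all libraries.

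Col10a1, the collagen of hypertrophic cartilage, was called higher in OR2 than in MDA594 and had few reads in most libraries. Recovered reads in untreated MDA594 were 10, 36, 4 and 2, and in treated MDA594 21, 16 and 50. OR1 had 4, 11 and 41 reads without treatment and 36, 16, 72 and 50 with it. Untreated OR2 had 318 and 274 reads, and treated OR2 had 88, 185 and 321. On the log2 CPM scale OR2 ran from -0.42 to 2.09, against -4.96 to -0.34 in MDA594 and -3.54 to 0.54 in OR1. Treated OR2 replicate 1 reached into the MDA594 and OR1 ranges, and treated OR1 replicate 3 lay above that library, so OR1 and OR2 overlapped. OR2 was higher than MDA594 by 3.45 over both treatments (SE 0.79, adjusted p = 0.0241). The adjusted p was 0.0704 without untreated OR2 replicate 1 and 0.0428 without the libraries with muscle markers. The value at such low counts depends on the 0.5 reads added by the authors, and Col10a1 was not kept by a stricter filter. With the title number in the model the difference turned to -0.66 (adjusted p = 0.779). That value hangs on untreated MDA594 replicate 2, with 36 reads, and treated OR2 replicate 1, with 88 reads, combined with the within-line responses.

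Col2a1, the main fibril chain of cartilage, varied widely within groups. It stood at 10.8, 10.7, 8.95 and 9.22 log2 CPM in untreated MDA594, and at 5.78, 7.31 and 7.26 in untreated OR1. Untreated OR2 had 7.59 and 6.55. Both untreated resistant groups lay wholly below untreated MDA594, with differences of -3.20 in OR1 (SE 0.73, adjusted p = 0.0901) and -2.97 in OR2 (SE 0.86, adjusted p = 0.164), neither called. With olaparib the values were 9.27, 8.18 and 9.55 in MDA594, 9.44, 7.95, 10.2 and 8.25 in OR1, and 8.70, 8.61 and 7.79 in OR2, and the 3 lines overlapped.

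**Figure D3:**
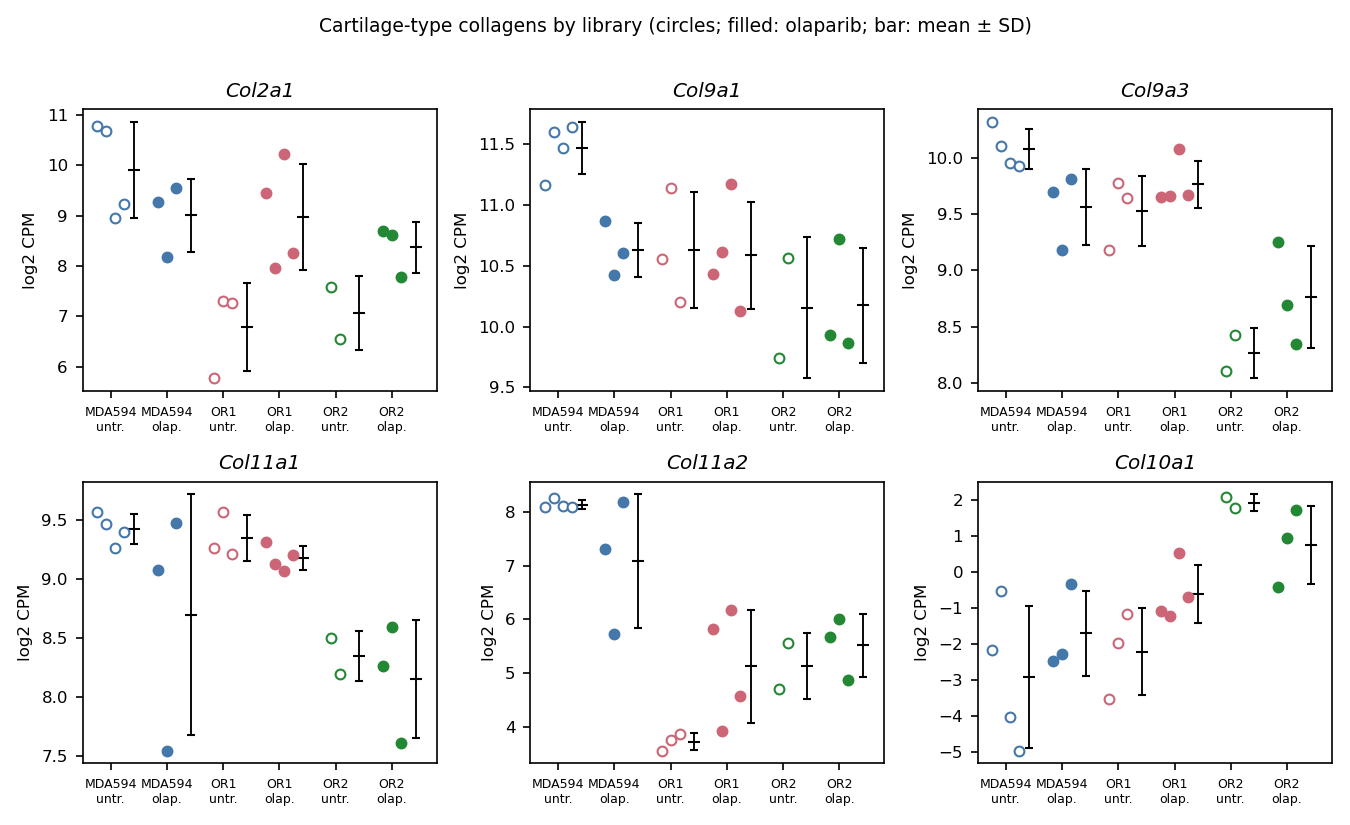
Log2 CPM (y axis) of 6 cartilage-type collagens in each library (circles, open for untreated and filled for olaparib) by line and treatment (x axis), with group mean and SD as bars. Untreated OR1 libraries lie at 3.56 to 3.87 for Col11a2, below all others, and OR2 libraries hold the highest Col10a1 values, up to 2.09.

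Of the 15 other cartilage matrix genes and regulators listed, 9 were tested. Comp, a pentameric matrix protein of cartilage and tendon, was the single one called in OR1 against MDA594 and was lower, by -3.88 (SE 0.88, adjusted p = 0.0241), and by -4.36 with an adjusted p of 0.0212 without the libraries with muscle markers. It stood at 5.82 to 6.80 log2 CPM in untreated MDA594 and at 0.46 to 2.31 in untreated OR1, while treated OR1 replicate 3 reached 5.95. Cnmd, which encodes chondromodulin, was the single one called in OR2 against MDA594, by -2.24 (SE 0.51, adjusted p = 0.0226), with 3.30 to 5.25 in MDA594 and 0.89 to 4.11 in OR2. Without the libraries with muscle markers it was at -2.18 with an adjusted p of 0.150. Sox9, the transcription factor that drives Col2a1 and Col11a2 in cartilage, stood at 4.68 to 6.79 in all libraries and was not called in any comparison. The list's median difference was -0.70 in OR1 and -0.64 in OR2, beside 0.01 and -0.02 over all genes. Acan, Matn1, Matn3, Hapln1, Chad and Ucma were not analysed here.

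Of the 6 type IV collagens of the basement membrane, 2 were called between OR1 and MDA594 and 3 between OR2 and MDA594. Col4a1 and Col4a2, which together form the ubiquitous type IV trimer, were called lower in both resistant lines. Col4a1 stood at 9.96, 10.7, 10.9 and 11.4 log2 CPM in untreated MDA594 and at 11.04, 11.1 and 11.3 in treated MDA594. OR1 had 9.23, 9.51 and 9.29 without and 10.3, 9.63, 10.5 and 10.04 with treatment. OR2 had 9.02 and 10.1 without and 8.03, 9.73 and 9.14 with treatment. Treated MDA594 lay above every OR1 and OR2 library, and untreated OR1 lay below all MDA594 libraries, while untreated OR2 replicate 2 overlapped with untreated MDA594. Over both treatments Col4a1 differed from MDA594 by -1.19 in OR1 (SE 0.31, adjusted p = 0.0377) and by -1.68 in OR2 (SE 0.34, adjusted p = 0.0129). Col4a2 differed by -1.12 in OR1 (SE 0.29, adjusted p = 0.0391) and by -1.66 in OR2 (SE 0.32, adjusted p = 0.0101). The OR1 calls of both genes were lost without untreated MDA594 replicate 2, any treated MDA594 library, any untreated OR1 library, or treated OR1 replicate 1, 2 or 4, at adjusted p-values of 0.0539 to 0.119 for Col4a1 and 0.0543 to 0.127 for Col4a2. In OR2, Col4a1 was at 0.0506 without treated MDA594 replicate 3 and 0.0517 without untreated OR2 replicate 1, and Col4a2 stayed called when any single library was left out. Without the libraries with muscle markers none of these 4 calls held, at adjusted p-values of 0.0993 to 0.192, with differences of -1.04 to -1.61. With the title number in the model the OR1 differences turned to 0.049 and 0.23. The OR2 differences stayed called there, at -2.60 for Col4a1 (adjusted p = 0.0459) and -2.41 for Col4a2 (adjusted p = 0.0479). All of these hang on single pairs of libraries and the within-line responses. With the compared lines alone the OR2 calls were lost, at 0.0929 for Col4a1 and 0.0884 for Col4a2.

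Col4a1 and Col4a2 kept step with each other. Each spanned 3.33 and 3.31 log2 units over the 19 libraries, but within a library Col4a1 exceeded Col4a2 by 0.60 to 1.03, a range of 0.43. Col6a1 and Col6a2, a pair of type VI chains, kept a range of 0.42 in the same way, while each spanned 2.99 and 2.83. The other head-to-head pair did not keep step: Col4a5 exceeded Col4a6 by 0.60 to 3.74. In treated MDA594 that difference was 3.04, 3.43 and 3.74, above the range of 0.60 to 2.17 in all other libraries. These chains form the type IV networks of skin and other specialised basement membranes. Col4a5 itself stood at 7.17 to 8.95 log2 CPM over all libraries, while Col4a6 was at 5.62, 4.68 and 4.26 in treated MDA594 and at 5.0 to 8.01 elsewhere.

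Col4a3 and Col4a4, chains of the type IV network of kidney and lung, were scarce. Col4a4 stood at 2.56 to 3.15 log2 CPM in untreated MDA594, 1.87 to 2.05 in treated MDA594 and 0.29 to 1.77 in OR2, with no overlap between MDA594 and OR2. It was lower in OR2 by -1.13 (SE 0.30, adjusted p = 0.0447). That call was lost at adjusted p-values of 0.0539 to 0.143 without any 1 of 11 libraries, namely untreated MDA594 replicate 2, any treated MDA594 library, untreated OR1 replicate 3, any treated OR1 library, untreated OR2 replicate 1 or treated OR2 replicate 2, and at 0.227 without those with muscle markers. A title number term put Col4a4 in OR2 at -1.25 with an adjusted p of 0.293. Col4a3 had 7 to 79 reads a library and was not called.

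**Figure D4:**
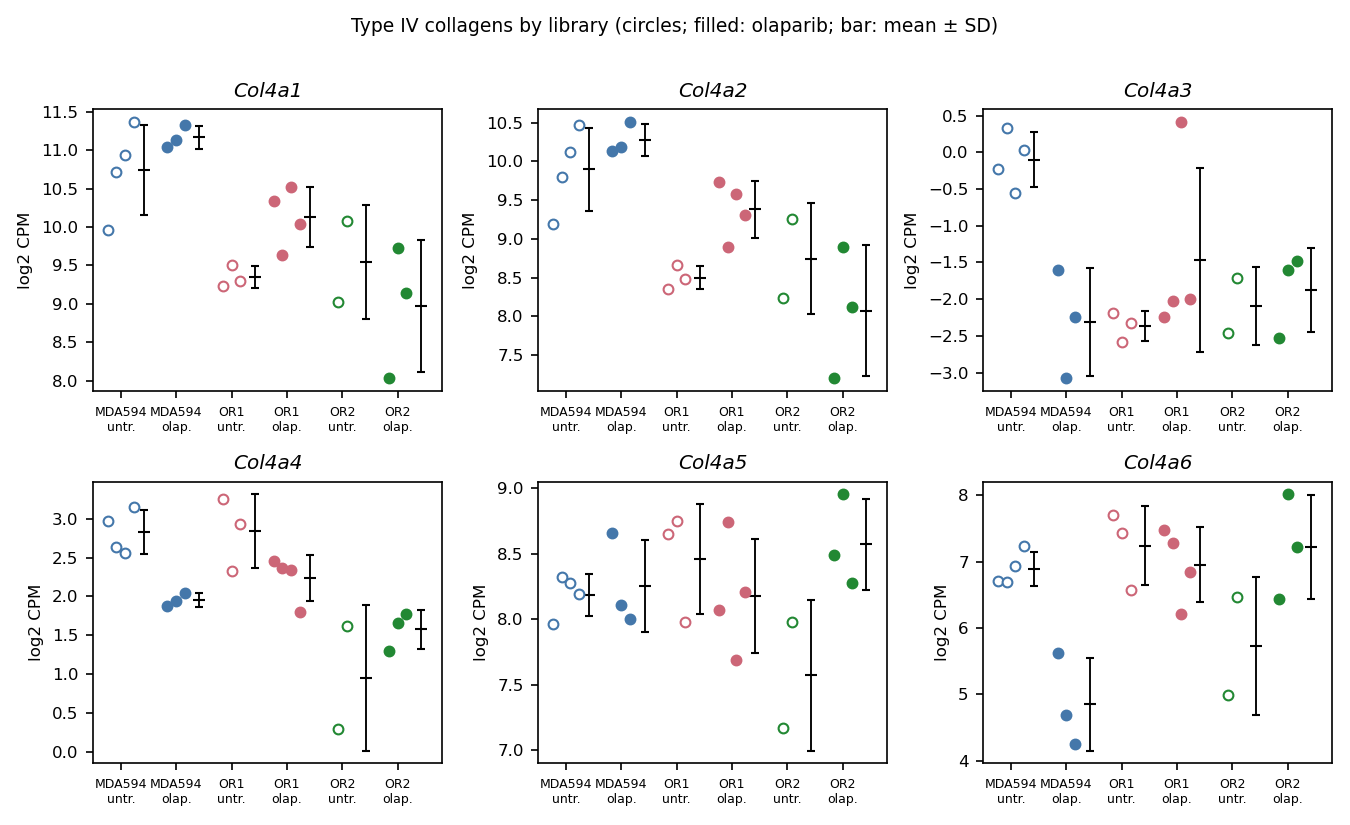
Log2 CPM (y axis) of the 6 type IV collagens in each library (circles, open for untreated and filled for olaparib) by line and treatment (x axis), with group mean and SD as bars. The Col4a1 and Col4a2 panels have nearly the same shape, and Col4a6 is at 4.26 to 5.62 in treated MDA594.

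Of 15 basement membrane partners listed, 12 were tested. In OR1 against MDA594, Lamb3, a laminin chain of epithelial basement membranes, was lower by -1.37 (SE 0.34, adjusted p = 0.0348), and Lamb2, another laminin chain, was higher by 0.83 (SE 0.23, adjusted p = 0.04999, just under the threshold). In OR2, Lama4, a laminin chain of vessel walls, was lower by -0.95 (SE 0.25, adjusted p = 0.0408), with all OR2 libraries at 8.48 to 9.24 log2 CPM and all MDA594 libraries at 9.34 to 10.9. Without the libraries with muscle markers none of these 3 was called, at adjusted p-values of 0.137 for Lamb3, 0.0567 for Lamb2 and 0.0581 for Lama4. The differences there were -1.37, 0.98 and -1.13, no smaller than with all libraries. The list's median difference was -0.35 in OR1 and -0.21 in OR2. Endothelial markers, of which 12 of 12 were tested, summed to 84.7 to 272 CPM in MDA594, 67.8 to 176 in OR1 and 65.7 to 212 in OR2. Limma called 0 of them in any of the 11 comparisons. An unadjusted p under 0.05 was seen in 1 of 132 gene and comparison pairs, and in 12.2% of the pairs over all genes tested. Their part in the type IV differences was not tested. Col7a1, which anchors epithelia, Col15a1 and Col18a1, which lie at the basement membrane zone, were not called in any comparison, with Col18a1 at 7.05 to 8.12 in OR2 and 5.79 to 7.47 in MDA594.

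Fibrillar collagens varied mostly between libraries of the same group, and 1 of the 8 was called between lines. Col1a1, a chain of type I, stood at 8.22, 7.81, 7.88 and 6.39 log2 CPM in untreated MDA594 and at 8.16, 7.72 and 9.41 in treated MDA594. OR1 had 6.29, 6.65 and 7.48 without and 7.09, 6.33, 9.13 and 9.42 with treatment. OR2 had 7.92 and 8.89 without and 6.23, 9.68 and 7.80 with treatment, so all groups overlapped with MDA594. Col1a2, the other type I chain, averaged 6.67 ± 0.67 (SD, n = 4) in untreated MDA594, and Col3a1, the type III chain, averaged 6.72 ± 0.77 (n = 4). Over both treatments, OR1 differed from MDA594 by -0.63 for Col1a1 (SE 0.66), -0.80 for Col1a2 (SE 0.65) and -0.77 for Col3a1 (SE 0.69), with adjusted p-values of 0.603, 0.488 and 0.539. The corresponding OR2 differences were 0.06, 0.13 and 0.11, with SEs of 0.74, 0.72 and 0.77. The pooled SD within groups had a median of 1.02 over the 8 fibrillar chains, 0.46 over the 7 cartilage-type chains, 0.52 over the 6 type IV chains and 0.31 over all genes tested.

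The libraries highest in fibrillar collagens were also high in fibroblast, endothelial and pericyte markers, which is given here as a description. Of 12 fibroblast markers 12 were tested, none of which is a collagen, and 5 of them are also in other lists used here. Mean fibrillar levels were highest in treated OR2 replicate 2 at 6.91 log2 CPM, treated MDA594 replicate 3 at 6.83 and treated OR1 replicate 4 at 6.71, and the same 3 libraries, in the same order, had the highest mean fibroblast markers, at 5.01, 4.29 and 4.07. In the same 3 libraries endothelial markers ranked 3, 1 and 6 of 19 and pericyte and smooth muscle markers ranked 4, 1 and 3. Treated OR2 replicate 1 had the lowest fibrillar mean at 4.10, with fibroblast markers at 2.5, which ranked 7 of 19, and endothelial and pericyte markers that ranked 18 and 19. Dcn, which encodes the fibril-binding proteoglycan decorin, reached 6.05, 5.22 and 4.99 in those 3 libraries and -0.34 in untreated OR1 replicate 2. Summed fibroblast markers ranged from 146 to 288 CPM in untreated MDA594, 225 to 479 in treated MDA594, 97.2 to 209 in untreated OR1, 114 to 455 in treated OR1, 170 to 372 in untreated OR2 and 244 to 662 in treated OR2. Limma called none of the 12 fibroblast markers in any of the 11 comparisons. An unadjusted p under 0.05 was seen in 11 of 132 gene and comparison pairs, and in 12.2% of the pairs over all genes tested. The part of these cell types in the collagen values was not tested.

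**Figure D5:**
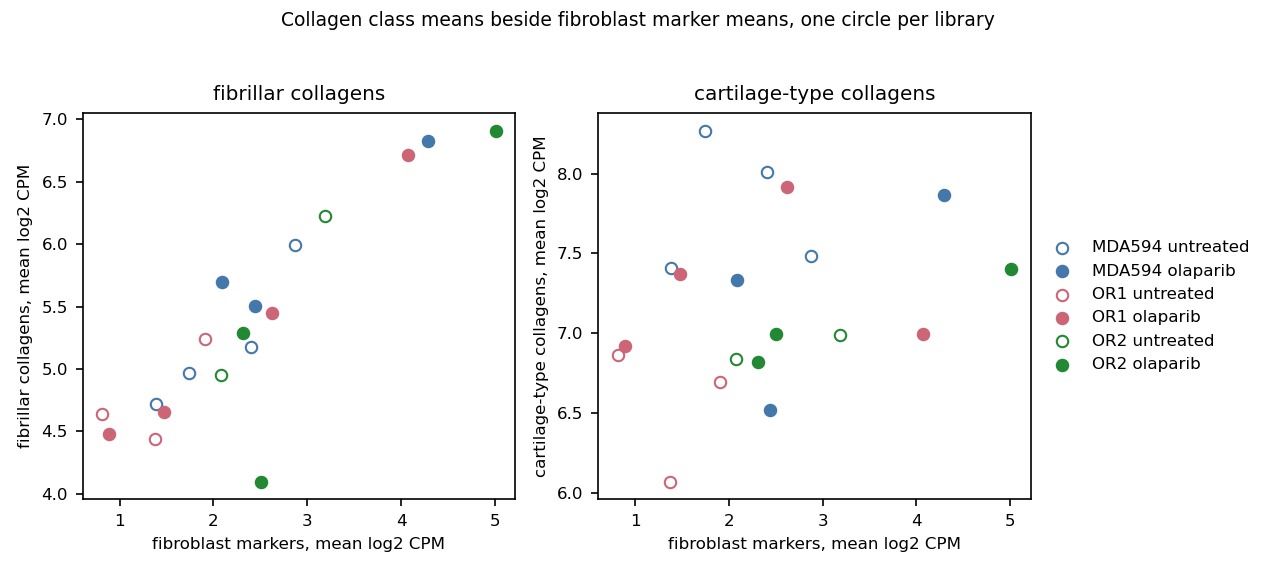
Mean log2 CPM of the 8 fibrillar (left) and 7 cartilage-type (right) collagens (y axis) beside the mean of 12 fibroblast markers (x axis), one circle per library, coloured by line and filled for olaparib. The 3 libraries with fibrillar means of 6.71 to 6.91 have the highest fibroblast markers, while their cartilage-type means rank 4 to 11 of 19.

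The exception among fibrillar chains was Col27a1, a fibrillar collagen of cartilage. It stood at 6.82, 6.31, 6.14 and 6.48 log2 CPM in untreated and 6.14, 5.88 and 6.79 in treated MDA594. OR2 had 3.66 and 4.92 without and 4.84, 5.59 and 5.48 with treatment, all below every MDA594 library. The difference was -1.60 (SE 0.31, adjusted p = 0.00921), which stayed called when any single library was left out but was at an adjusted p of 0.0821 without the 3 libraries with muscle markers. The call was also lost with a title number term, at -1.94 with 0.112, and with the compared lines alone, at -1.62 with 0.0722. In OR1 it was at 5.20 to 6.62 and was not called.

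Among the remaining classes, 3 collagens were called between lines. Col6a6, a type VI chain of low abundance, stood at 0.92 to 2.23 log2 CPM in MDA594, -2.58 to 0.76 in OR1 and -4.05 to 0.46 in OR2, and neither resistant line overlapped with MDA594. It was lower by -2.56 in OR1 (SE 0.62, adjusted p = 0.0299) and by -3.34 in OR2 (SE 0.68, adjusted p = 0.0129). Reads were 155 to 301 in MDA594, 7 to 131 in OR1 and 4 to 162 in OR2. The OR1 call was lost without treated MDA594 replicate 2 or 3, untreated OR1 replicate 2 or 3, or treated OR1 replicate 4, at adjusted p-values of 0.0522 to 0.108. The OR2 call was lost without treated MDA594 replicate 3, at 0.0573, and without untreated OR2 replicate 1, at 0.0560. Without the libraries with muscle markers they were at 0.0786 and 0.0728. A title number term put them at 0.817 and 0.306.

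Col25a1 encodes a transmembrane collagen known from amyloid plaques in the brain. It stood at 7.39, 7.17, 6.75 and 6.19 log2 CPM in untreated MDA594 and at 5.31, 4.62 and 4.78 in treated MDA594. OR1 had 6.30 to 6.96 without and 7.04 to 7.89 with treatment, and OR2 had 7.87 and 8.88 without and 6.05 to 7.15 with treatment. Every treated MDA594 library lay below all others. Over both treatments it was higher than in MDA594 by 1.05 in OR1 (SE 0.29, adjusted p = 0.0446) and by 1.59 in OR2 (SE 0.32, adjusted p = 0.0114). Untreated OR1, at 6.30 to 6.96, lay within the untreated MDA594 range of 6.19 to 7.39. The averaged OR1 difference thus came from the treated tumours. The OR1 call was lost at adjusted p-values of 0.0503 to 0.134 without any 1 of 12 libraries, namely untreated MDA594 replicate 2, treated MDA594 replicate 2 or 3, any OR1 library or either untreated OR2 library. The OR2 call held when any single library was left out and was lost, at 0.0829, without those with muscle markers. The OR1 call was at 0.176 without those libraries. A title number term gave 0.24 in OR1 (adjusted p = 0.948) and 1.18 in OR2 (adjusted p = 0.339). With the compared lines alone the OR2 call was lost, at 0.0884. Col16a1, a fibril-associated collagen, was lower in OR2 by -1.01 (SE 0.25, adjusted p = 0.0329), at 5.41 to 6.87 against 6.76 to 7.47 in MDA594. This call was lost without untreated MDA594 replicate 2, treated MDA594 replicate 3, treated OR1 replicate 2 or 3, or untreated OR2 replicate 1, at adjusted p-values of 0.0513 to 0.113, and at 0.218 without the libraries with muscle markers. It stayed called with a title number term, at -2.03 with an adjusted p of 0.0453, and was lost with the compared lines alone, at 0.190.

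The other collagens of these classes were not called in any comparison. Col6a1 ranged from 4.17 to 7.16 log2 CPM over the 19 libraries, Col6a2 from 4.33 to 7.16 and Col6a3 from 5.29 to 7.73. The short-chain network collagens Col8a1 and Col8a2, found in vessel walls and the cornea, ranged from 2.44 to 6.78 and from 3.42 to 6.76. Col12a1 and Col14a1, which coat the surface of type I fibrils, ranged from 3.75 to 6.60 and from 1.70 to 6.14, and Col20a1 from -0.60 to 4.15. The transmembrane chains Col13a1 and Col23a1 and the little-known Col28a1 were scarce, with at most 252, 326 and 193 reads in any library. Among fibrillar chains, Col5a1, Col5a2 and Col5a3, which start and limit fibrils, ranged from 4.67 to 7.2, 4.0 to 7.32 and 3.20 to 6.02, and Col24a1 had 9 to 145 reads.

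Within the larger series of library names alone, the 18 calls between lines kept their direction, in a fit whose host-code correlation was -0.298. Its libraries were also part of the fit that gave these calls, so the kept directions are not an independent check. There Col11a2 differed by -3.13 in OR1 and -2.24 in OR2, Col4a1 by -1.47 and -1.66, Col4a2 by -1.40 and -1.65, Col6a6 by -2.39 and -3.29, and Col25a1 by 1.29 and 1.79. Within that series Col9a3, Col27a1, Col16a1, Col4a4 and Col10a1 differed by -1.35, -1.35, -0.71, -1.06 and 4.82 in OR2. OR1 exceeded OR2 by 1.34 for Col9a3, and the untreated differences were -4.23 for Col11a2 in OR1 and -1.68 for Col9a3 in OR2. The larger series holds 1 untreated OR1 library, replicate 3, so every OR1 value in it that uses untreated tumours rests on that library and on the assumption that it varies like the other groups. Its 2 untreated MDA594 libraries share 1 host code, and so do its 2 untreated OR2 libraries, so each line has 1 untreated host code there. A negative correlation also lowers the SE of a mean over libraries of 1 host code, which bears on every call within that series. The smaller series holds 6 libraries, none of them treated MDA594 or untreated OR2. Its 2 untreated OR1 libraries share 1 host code, so a test against its 2 untreated MDA594 libraries measures no spread between OR1 host codes. This comparison, chosen after seeing the data, called 6 collagens and 193 of 16330 genes, and Col11a2 was lower in OR1 by -4.52.

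Beside the OR1 difference, 4 of 8 macrophage markers were called lower, among them the complement chains C1qa at -1.39, C1qb at -1.36 and C1qc at -1.38, and 1 of 8 epithelial markers, Krt7, was lower by -2.84. Of 4 bone cell markers tested, Alpl was called lower, by -1.81 (adjusted p = 0.0567 without the libraries with muscle markers). Without the libraries with muscle markers, Krt7 stayed called at an adjusted p of 0.0463 and the 4 macrophage markers were at 0.115 to 0.142. Krt7 was also called lower in OR1 than in OR2, by -3.45 (adjusted p = 0.0220, and 0.0567 without those libraries). Beside the OR2 difference, 1 of 8 macrophage markers was called higher, and of 10 pericyte and smooth muscle markers 1 was called higher and 1 lower. None of these OR2 calls held without the libraries with muscle markers, at adjusted p-values of 0.132 to 0.194. Summed macrophage markers ranged from 279 to 1027 CPM in MDA594, 121 to 522 in OR1 and 288 to 994 in OR2. Their part in the collagen differences was not tested.

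Tumours treated with olaparib were compared with the control tumours within each line, and no collagen was called in any line, although some alternative models made calls. In MDA594, limma called 0 of 38 collagens and 0.122% of all genes. An unadjusted p under 0.05 was reached by 7 collagens and by 16.8% of all genes, and voom called 0 of each. A model that also held the title number called 3 collagens lower in treated MDA594, namely Col25a1 at -1.50 (adjusted p = 0.0274), Col9a2 at -1.39 (adjusted p = 0.0120) and Col4a6 at -1.93 (adjusted p = 0.0182). In that model the MDA594 response rests on 1 title number. Its 2 untreated libraries share 1 host code and its 2 treated libraries share another, so no spread between MDA594 host codes of a treatment enters these values. Within the larger series alone 8 were called, and with no host-code correlation 4. Without such a term and over all libraries, Col25a1 came nearest, at -2.05 (SE 0.40, adjusted p = 0.0570), followed by Col4a6 at -2.08 (SE 0.52, adjusted p = 0.101), and for both every treated library lay below every untreated one. Of the cartilage-type chains 6 of 7 had negative values, with a median of -0.83, among them Col9a2 at -0.99 (adjusted p = 0.138) and Col9a1 at -0.83 (adjusted p = 0.245). Of the fibrillar chains 7 of 8 had positive values, with a median of 0.94, and of the fibroblast markers 12 of 12, with a median of 0.81. Treated MDA594 replicate 3 lay above its group mean in 8 of 8 fibrillar chains and the other treated libraries in 0 of 8, and without it the fibrillar median was 0.51 and the cartilage-type median -1.13. Without all 3 libraries with muscle markers they were 0.53 and -1.13, and a title number term gave 0.33 and -0.91. Over all alternatives the cartilage-type median ran from -1.13 to -0.39. The type IV median was -0.41, and -0.35 without the libraries with muscle markers, and ran from -0.54 to 0.05 over all alternatives. The 38 collagens had a median of 0.49, beside 0.01 over all genes tested. The 10 skeletal muscle markers had a median of 4.30, with the highest muscle values in treated MDA594 replicate 3, and 7 of 8 macrophage markers had positive values with a median of 1.43. Mean macrophage markers were 4.89 to 5.49 log2 CPM in untreated and 5.98 to 6.62 in treated MDA594, without overlap, and limma called 0 of them. The part of fibroblasts, muscle and macrophages in these values was not tested. The count of collagens called was 1 without untreated MDA594 replicate 1, 3 or 4 or treated OR2 replicate 2 or 3, and 2 without treated OR2 replicate 1. Apart from voom, the share of all genes called under the alternatives is not given here.

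In OR1, 0 of 38 collagens and 0% of all genes were called, 4 collagens and 5.87% of all genes had an unadjusted p under 0.05, and voom called 0. The title number in the model and the larger series alone also gave 0. Positive values were seen for 31 of the 38, with a median of 0.68 beside -0.01 over all genes. Col2a1 had the largest value, 2.10 (SE 0.73, adjusted p = 0.717), with all treated libraries above all untreated ones, and it was 1.26 without the libraries with muscle markers. The fibrillar median was 0.59, but 0.37 without the libraries with muscle markers and -0.05 without treated OR1 replicate 4. The cartilage-type median was 0.21, and -0.04 without the libraries with muscle markers. For type IV chains the median was 0.31, and 0.28 without those libraries, and ran from -0.17 to 0.50 over all alternatives. Mean macrophage markers were 3.8 to 4.27 log2 CPM in untreated and 4.86 to 5.92 in treated OR1, again without overlap, with 8 of 8 values positive, a median of 1.34 and 0 called, and their part was not tested. In OR2, 0 of 38 and 0% of all genes were called, 5 collagens and 6.64% of all genes had an unadjusted p under 0.05, and voom called 0. Within the larger series alone 1 collagen was called, Col25a1 at -1.77 (adjusted p = 0.0458). Col25a1 was again lower in every treated library, by -1.74 (SE 0.49, adjusted p = 0.444), and Col6a6 was higher in every treated library, by 2.7 (SE 1.05, adjusted p = 0.664). For the mean response of the 3 lines, 0 of 38 collagens and 0.00612% of all genes were called, 4 collagens and 13.7% of all genes had an unadjusted p under 0.05, and voom called 0. The nearest was Col25a1 at -1.02 (SE 0.25, adjusted p = 0.125), and 1 collagen was called without treated OR2 replicate 1. A title number term gave 3 calls, Col25a1 at -0.83, Col12a1 at 0.95 and Col8a1 at 1.32. The MDA594 part of that mean then rests on 1 host code per treatment. Col1a1, Col1a2 and Col3a1 averaged 0.51, 0.75 and 0.78, with SEs of 0.58, 0.57 and 0.61.

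Whether the lines differed in their response was tested by interaction. The OR1 response against that of MDA594 called 0 of 38 collagens and 0% of all genes, with 6 collagens and 7.33% of all genes at an unadjusted p under 0.05 and 0 called by voom. The OR2 response against that of MDA594 called 0 of 38 and 0% of all genes, with 4 collagens and 6.16% of all genes at an unadjusted p under 0.05 and 0 called by voom. For Col25a1, which was lower with treatment in all MDA594 libraries and higher in all OR1 libraries, the interaction was 2.77 (SE 0.57, adjusted p = 0.488). For Col2a1 it was 3.08 in OR1 (SE 1.03, adjusted p = 0.673), and for Col4a6 it was 3.57 in OR2 (SE 0.82, adjusted p = 0.585). None of these reached the threshold over all genes, although the OR2 count was 1 without untreated OR2 replicate 2. The model with title numbers called 2 interactions in OR1, Col25a1 at 2.27 (adjusted p = 0.0325) and Col9a2 at 1.53 (adjusted p = 0.0446), and 1 in OR2, Col4a6 at 3.81 (adjusted p = 0.0264). The MDA594 response in these interactions rests on 1 host code per treatment. Within the larger series alone the counts were 0 and 2.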

How the data were processed

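RNA of 20 tumours was extracted with RNeasy Mini and made into KAPA stranded mRNA libraries, per the labels' protocols. Per the submitters' processing notes, reads were handled with STAR 2.7.10a and RSEM 1.3.1 on GRCm39, and limma is listed with no version. The deposited table holds log2 CPM per gene, and 100% of its values came out as whole reads, within 0.01 reads, when read as the log2 CPM of reads plus 0.5 over a scaled library size. Here 19 libraries in 6 groups were fitted, and 1 was left out because its title and its treatment label disagree. Genes with log2 CPM above 0 in at least 2 libraries were kept, which removed 81 and left 16330. Group means were fitted with limma 3.58.1 in R 4.3.3, with a mean trend and a correlation of 0.404 between libraries of a host code, leaving 13 residual degrees of freedom. Tests were two-sided in 11 comparisons, with Benjamini-Hochberg adjustment over all genes at 0.05 in each. The code was tested on simulated data. Every collagen is named by class, in full those called in any comparison and Col1a1, Col1a2, Col3a1, Col4a1, Col4a2, Col2a1, Col10a1 and Col11a1, and of the other lists the genes called beside a named collagen. Sox9, Dcn, Epcam and Cdh1 were named after their values were seen. The alternatives were no filter, a stricter filter, a constant added to CPM, quantile or median scaling, no host-code correlation, averaged host codes, a term for library series or title number, the larger series alone, the compared groups alone, no mean trend, and each library left out. Voom on recovered reads, leaving out the libraries with muscle markers and the smaller series alone were chosen after seeing the data. The members and lists were chosen with earlier results of these data known.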

Additional observations from a re-analysis of the deposited data

Results flagged for a closer look

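In the 2 groups of 4 libraries, 10 of 76 gene and group pairs held a library set apart from the 3 others of its group. The gap took 0.831 to 0.982 of the group's range, so it can be small, as for Col11a2 at 8.26 beside 8.09 to 8.11. A chance rate of about 1 in 20 holds for independent values, but 5 of these pairs share 1 library. The share over all genes is not given here, so the count is not a result about collagens in particular. In untreated MDA594, replicate 3 stood apart for 5 collagens. It was high for Col5a2 at 6.43 log2 CPM, Col5a3 at 5.37, Col6a2 at 6.61 and Col23a1 at 1.68, and low for Col13a1 at -0.18. Replicate 1 was high for Col7a1 at 4.74, replicate 2 for Col11a2 at 8.26, and replicate 4 was low for Col8a1 at 3.15. In treated OR1, replicate 3, which also holds muscle markers, was high for Col9a3 at 10.1 and for Col4a3 at 0.41.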

How the results depend on the processing

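The number of collagens called moved with the model, and the cause was not tested. Here and above, the share of all genes called is given for voom and the smaller series only. A moved count under the other alternatives is therefore not a result about collagens in particular. With no host-code correlation it was 4 in the MDA594 response, 1 in the mean response, 7 and 11 for untreated OR1 and OR2, 10 for OR1 over both treatments and 8 for OR1 against OR2. In the larger series alone the same counts were 8, 1, 4, 17, 8 and 4, with 1 in the OR2 response and 2 in the OR2 interaction. With the title number as a term they were 3 and 3 for the MDA594 and mean responses, 0 for untreated OR1, 0 for OR1 and 3 for OR2 over both treatments, 0 for OR1 against OR2, and 2 and 1 for the interactions. That term, under which line differences hang on single pairs of libraries, turned Col4a1 and Col4a2 to 0.049 and 0.23 in OR1 and Col10a1 to -0.66 in OR2. Under it Col4a1, Col4a2 and Col16a1 stayed called in OR2 over both treatments, and the MDA594 response rests on 1 host code per treatment. The MDA594 response had 1 call with the stricter filter, the added constant, quantile scaling or the series term. The added constant gave 3 for untreated OR2 and 2 for OR1 against OR2. Averaged host codes gave 2 and 0 for untreated OR1 and OR2. The compared groups alone gave 0 for untreated OR2, 2 for OR2 and 4 for OR1 against OR2. Voom gave 0 for untreated OR1 and 2 for OR1, and no mean trend gave 3 for OR1. Without the muscle libraries the counts were 0 for untreated OR2, 1 for OR1, 2 for OR2 and 0 for OR1 against OR2. Leaving out 1 library at a time gave 0 to 2 in the MDA594 response, 0 to 0 in the OR1 and OR2 responses, 0 to 1 in the mean response, 0 to 1 and 0 to 5 for untreated OR1 and OR2, 1 to 7 and 4 to 11 over both treatments, 0 to 4 for OR1 against OR2, and 0 to 1 in the OR2 interaction. The smaller series alone, where both untreated OR1 libraries share a host code, gave 6 for untreated OR1. The labels give no replicate numbers, so libraries were paired only through the title number used as a term. The 2 untreated OR2 libraries share a host code, and genes with few reads, such as Col10a1, rest on small counts.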

Other observations

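Genes that make, modify and degrade collagen were not called. All 20 synthesis and secretion genes, 12 of 13 processing and crosslinking genes and all 13 turnover genes listed were tested, and limma called 0 of them in any of the 11 comparisons. An unadjusted p under 0.05 was reached in 18 of 220, 9 of 132 and 24 of 143 gene and comparison pairs of these lists, and in 12.2% of the pairs over all genes tested, and voom results for single genes were kept for the collagens only. Of 9 collagen receptors tested, Lair1, an inhibitory receptor of immune cells, was called lower in OR1 against MDA594, by -1.37 (SE 0.37, adjusted p = 0.0452). It was at -1.58 with an adjusted p of 0.129 without the libraries with muscle markers. Of 12 collagen-binding matrix proteins, Thbs2, a thrombospondin, was called lower in OR1, by -2.02 (SE 0.38, adjusted p = 0.0113), and at 0.00912 without them. The 4 macrophage markers called lower in the same comparison stand beside the Lair1 value, and their part in it was not tested.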
